A study of Mus musculus with 42 samples.

Results

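Toll-like receptors are the pattern-recognition receptors through which innate immune cells sense molecules of bacteria, viruses and parasites. The 10 genes described here were taken by name, Tlr1, Tlr2, Tlr3, Tlr4, Tlr6, Tlr7, Tlr8, Tlr9, Tlr12 and Tlr13, and all 10 were found among the 24421 genes of the whole-brain table and the 53546 genes of the cortex and hippocampus table. Microglia, the resident macrophages of the brain, were isolated from C57BL/6 mice by sorting for CD11b+ CD45lo, and their bulk RNA was sequenced. Of the 42 libraries, 8 came from whole brain, 12 from cortex and 22 from hippocampus, in 11 groups.

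Whole-brain microglia came from wild-type mice of 6 to 12 weeks (8 weeks in their titles) kept under specific-pathogen-free conditions (SPF, 3 libraries) or without any microbes (germ-free, GF, 5 libraries). All other mice were 16 weeks old. Cortex microglia came from wild-type SPF, GF and acetate-treated GF mice, with n = 4 in each group. Hippocampal microglia came from wild-type mice (SPF n = 4, GF n = 3, acetate n = 4) and from 5xFAD mice (SPF n = 4, GF n = 3, acetate n = 4). The 5xFAD line carries human transgenes with familial Alzheimer's disease mutations under the neuronal Thy1 promoter. Acetate was given in the drinking water. The labels give a course of 8 weeks, and another of 4 weeks that they tie to no library. Hippocampal and cortical libraries are named below as in their titles by condition, genotype and animal number, where GFA stands for acetate-treated GF mice. The comparisons address whether microglia differ between GF and SPF housing, and whether acetate given to GF mice is accompanied by a further difference.

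These receptors span the membrane and read ligands with a curved domain of leucine-rich repeats. TLR2 pairs with TLR1 or TLR6 at the cell surface and binds bacterial lipopeptides, and TLR4 binds lipopolysaccharide together with MD-2 and CD14. TLR3, TLR7, TLR8, TLR9 and TLR13 sit in endosomes and read nucleic acids, and mouse TLR12 is known as a receptor for profilin of protozoan parasites. All of them except TLR3 signal through the adaptor MYD88, and the endosomal members need the chaperone UNC93B1 to reach their compartment.

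Promoter sequences are shown for Tlr2 and Tlr12, whose levels passed the test in more than 1 comparison below. Tlr7 also passed in more than 1, but it and Tlr4 had no promoter entry and were not searched. They are the 250 bases before the start site, 5′ to 3′ on the gene's strand, from RefSeq on GRCm38.p6. Tlr2 lies on the minus strand at chr3:83841609-83841858 and Tlr12 on the minus strand at chr4:128618620-128618869. Capitals mark matches to 2 of 6 motifs searched on both strands, the NF-kB motif (GGGA and CC with any 4 bases between them) and the Sp1 GC box GGGCGG.
Tlr2: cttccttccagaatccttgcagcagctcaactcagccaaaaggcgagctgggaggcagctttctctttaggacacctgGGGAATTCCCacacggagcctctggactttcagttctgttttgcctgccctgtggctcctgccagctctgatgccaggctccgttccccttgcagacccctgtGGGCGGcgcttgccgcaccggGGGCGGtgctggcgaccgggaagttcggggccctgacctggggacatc
Tlr12: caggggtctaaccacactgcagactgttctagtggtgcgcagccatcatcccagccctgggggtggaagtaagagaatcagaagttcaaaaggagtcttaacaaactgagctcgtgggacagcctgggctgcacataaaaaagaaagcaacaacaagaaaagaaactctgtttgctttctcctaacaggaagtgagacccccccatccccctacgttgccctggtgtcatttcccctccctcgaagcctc
The Tlr2 promoter held 1 NF-kB match, at position -172 from the start, and 2 Sp1 matches, at -69 and -48. Of 32851 mouse promoters of the same length, 17.6% held the NF-kB motif and 32.7% the Sp1 motif. No motif searched was found in the Tlr12 window. The other 4 motifs were PU.1 (GAGGAAGT, in 2.44% of promoters), ISRE (GAAA, any 2 bases, GAAA, 2.98%), AP-1 (TGANTCA, 6.75%) and the glucocorticoid receptor motif (G, any base, ACA, any 3 bases, TGT, any base, C, 0.387%). Among the 8 members with an entry, Tlr3 held 2 NF-kB matches, at -211 and -23, Tlr1 a PU.1 match at -23 from 1 of its start sites, Tlr6 2 overlapping ISRE matches at -116 and -110, and Tlr9 an AP-1 match at -58. A match describes letters only and is no evidence of binding.

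Total counts per library ranged from 19329304 to 25366393 in whole brain, 15790383 to 23860490 in cortex and 5743891 to 22532410 in hippocampus. The 2 shallowest hippocampal libraries were wild-type SPF 4 and SPF_FAD_2142. The 8 microglial markers were detected in every library. The library labelled SPF_FAD_2152 went against its label: Cst7, a gene of amyloid-associated microglia, stood at 13.2 CPM (counts of a gene scaled to the library total) there, against 368 to 771 CPM in the other 5xFAD hippocampal libraries and 4.53 to 22.7 CPM in wild-type hippocampus. Receptor results that rest on the 5xFAD SPF group are given with and without it where its removal bears on a call. The Y-linked Ddx3y had no counts in whole-brain libraries and 62.1 to 147 CPM in all others, while Xist was at 95.1 to 193 CPM in whole brain and at most 3.31 CPM elsewhere. Sex-linked expression thus differed between the tables, though not between groups of a table, and Tlr7, Tlr8 and Tlr13 lie on chromosome X. Groups are therefore compared within a table only, while shares and ranges over all 42 libraries describe both tables together. In bulk RNA, fewer cells of a type and less RNA per cell cannot be told apart.

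Endosomal RNA sensors made up most of the receptor transcripts. Expressed per kilobase of exon, Tlr7, the sensor of single-stranded RNA, took a median of 28.4% of the summed level of the 10 genes (range 21.9% to 44.3% over 42 libraries). Tlr13, which reads bacterial ribosomal RNA, took 23.1% (17.4% to 29.5%), and the lipopeptide receptor Tlr2 took 20.2% (11.03% to 27.7%). Tlr7 and Tlr13 together held 43.3% to 69.9%. Tlr4 took a median of 8.01%, Tlr3 6.31%, Tlr1 5.04%, Tlr12 3.95%, Tlr6 3.20% and Tlr9, the sensor of unmethylated CpG DNA, 0.489%. The ranges of Tlr7, Tlr13 and Tlr2 overlapped, so their order held for the medians and not in every library or group. In whole-brain SPF the mean level per kilobase was 124 ± 9.14 CPM for Tlr2 and 121 ± 9.37 CPM for Tlr7 (SD, n = 3), and in SPF hippocampus of both genotypes Tlr2 stood above Tlr13 by its mean.

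**Figure D1:**
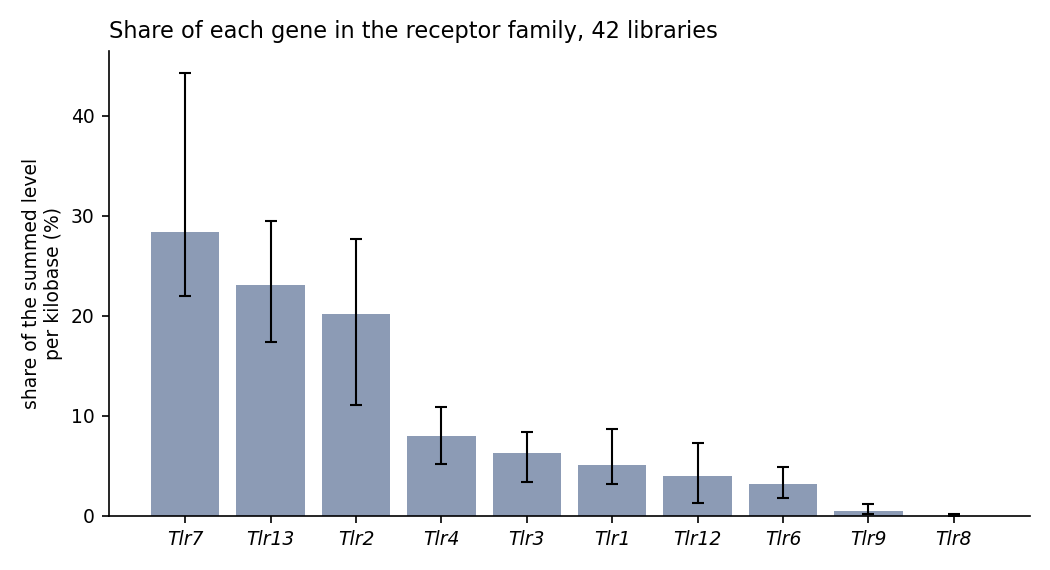
Share of each gene in the summed level of the 10 receptor genes, per kilobase of exon (y axis, percent), with bars at the median of 42 libraries and lines from the lowest to the highest library. Tlr7, Tlr13 and Tlr2 lead at medians of 28.4%, 23.1% and 20.2% over all libraries, with overlapping ranges, and Tlr9 and Tlr8 are near 0.

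Tlr8, also a receptor of single-stranded RNA, had counts in 7 of 42 libraries. They were 35 and 8 counts in SPF_FAD_2140 and SPF_FAD_2142, 37 and 36 counts in GFA_FAD_520 and GFA_FAD_522, 20 and 1 counts in whole-brain GF 5 and 3, and 1 count in cortex GFA_WT_524. The other 35 libraries had none, so within each of these groups some libraries held counts and others did not. Because of the zeros no fold is given. Summed markers of dendritic cells, cells that a CD45lo sort would largely leave out, overlapped between 5xFAD SPF and acetate libraries with and without Tlr8 counts. They were at 18.8, 25.02, 25.5 and 30.3 CPM in SPF_FAD_2140, SPF_FAD_2142, GFA_FAD_520 and GFA_FAD_522, and at 35.9, 25.8, 28.7 and 24.8 CPM in SPF_FAD_2152, SPF_FAD_2153, GFA_FAD_519 and GFA_FAD_521, which had none. Whole-brain GF 5 and 3 had 5.14 and 11.1 CPM, and cortex GFA_WT_524 had 16.6 CPM. Summed monocyte markers of the same 5xFAD libraries were at 16.7, 13.5, 19.5 and 7.37 CPM with Tlr8 counts. Without them they were at 12.3, 33.8, 6.58 and 12.1 CPM. The source of the Tlr8 counts was not tested.

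Among the cell-surface receptors, Tlr2 was lower in GF than in SPF microglia. In whole brain it stood at 405, 351 and 369 CPM in the 3 SPF libraries and at 287, 309, 291, 293 and 289 CPM in the 5 GF libraries. In cortex the SPF libraries had 244, 226, 260.1 and 201 CPM and the GF libraries 169, 152, 141 and 161 CPM. Every GF library was below every SPF library in both tissues. The mean went from 375 ± 27.5 to 294 ± 8.88 CPM (SD, n = 3 and 5) in whole brain, a 1.28-fold lower level (log2 -0.35 ± 0.06 SE, edgeR adjusted p = 0.00693). In cortex it went from 233 ± 25.2 to 156 ± 12.0 CPM (SD, n = 4 each), 1.498-fold lower (log2 -0.58 ± 0.09, adjusted p = 0.00357). The cortex call held when any 1 library was left out, whereas the whole-brain call was lost without SPF 1 (log2 -0.30, adjusted p = 0.0556).

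Hippocampal Tlr2 had 234, 173, 219.5 and 248 CPM in wild-type SPF and 149, 136 and 191 CPM in wild-type GF libraries. In 5xFAD mice the SPF libraries had 226, 259.6, 192 (library SPF_FAD_2152) and 241 CPM and the GF libraries 190.2, 123 and 142 CPM. Wild-type groups overlapped by 1 GF library, and in 5xFAD the highest GF library lay just below SPF_FAD_2152. Neither genotype alone passed the test, at log2 -0.46 (adjusted p = 0.203) in wild type and -0.60 (adjusted p = 0.0574) in 5xFAD, which became -0.67 (adjusted p = 0.0363) without SPF_FAD_2152. Averaged over both genotypes, a contrast added after the values had been seen, Tlr2 was 1.44-fold lower in GF (log2 -0.53 ± 0.11, 95% interval -0.76 to -0.30, adjusted p = 0.00611), and -0.57 (adjusted p = 0.00387) without SPF_FAD_2152. That average kept its call in every alternative run.

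Acetate-treated libraries had Tlr2 between the other groups in cortex, at 206, 209.6, 204 and 188 CPM, above every GF library. The log2 difference from GF was 0.38 (95% interval 0.18 to 0.57) and did not pass (adjusted p = 0.0648). It passed in DESeq2 (adjusted p = 0.00946) and in a fit of the compared groups only (adjusted p = 0.0268). Against SPF the difference was -0.21 (-0.40 to -0.01, adjusted p = 0.69). In hippocampus the averaged acetate difference from GF was 0.34 (adjusted p = 0.146). GF libraries enter both the GF against SPF and the acetate against GF comparisons, so a low or high GF group moves both in opposite directions.

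Tlr1, which forms a lipopeptide receptor with TLR2, passed the test in whole brain and in no other comparison. The SPF libraries had 52.9, 55.1 and 51.8 CPM and the GF libraries 79.4, 70.6, 85.7, 66.1 and 74.3 CPM, with no overlap. Tlr1 was 1.41-fold higher in GF (log2 0.50 ± 0.10, 95% interval 0.28 to 0.72, adjusted p = 0.0236). The call was lost when any SPF library was left out (adjusted p 0.0904, 0.072 and 0.0937 without SPF 1, 3 and 4) or without GF 1 (adjusted p = 0.0596). In wild-type hippocampus Tlr1 had 59.0 to 67.7 CPM in SPF and 49.4 to 56.5 CPM in GF, without overlap (log2 -0.30, adjusted p = 0.436), and in cortex the difference was -0.03. Tlr1 and Tlr6 share 454 stretches of 50 bases, 13.6% and 12.3% of the distinct stretches of that length in their transcripts. Reads from there can fit both genes, so their separate values are uncertain. How such reads were counted was not examined. Tlr6 ranged from 17.8 to 59.3 CPM and passed in no comparison.

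Tlr4 ranged from 91.8 to 288 CPM, and its GF difference did not pass in any tissue, at log2 -0.12 in whole brain and -0.29 in cortex, with hippocampal values of -0.10 (wild type) and -0.23 (5xFAD). All 4 were below 0, and each 95% interval included 0. Without SPF_FAD_2152 the 5xFAD value was -0.14. Its co-receptor Cd14 was at log2 -0.08 to 0.24 over the same 4 comparisons and Ly96, which encodes MD-2, at -0.35 to -0.12, and neither was called.

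**Figure D2:**
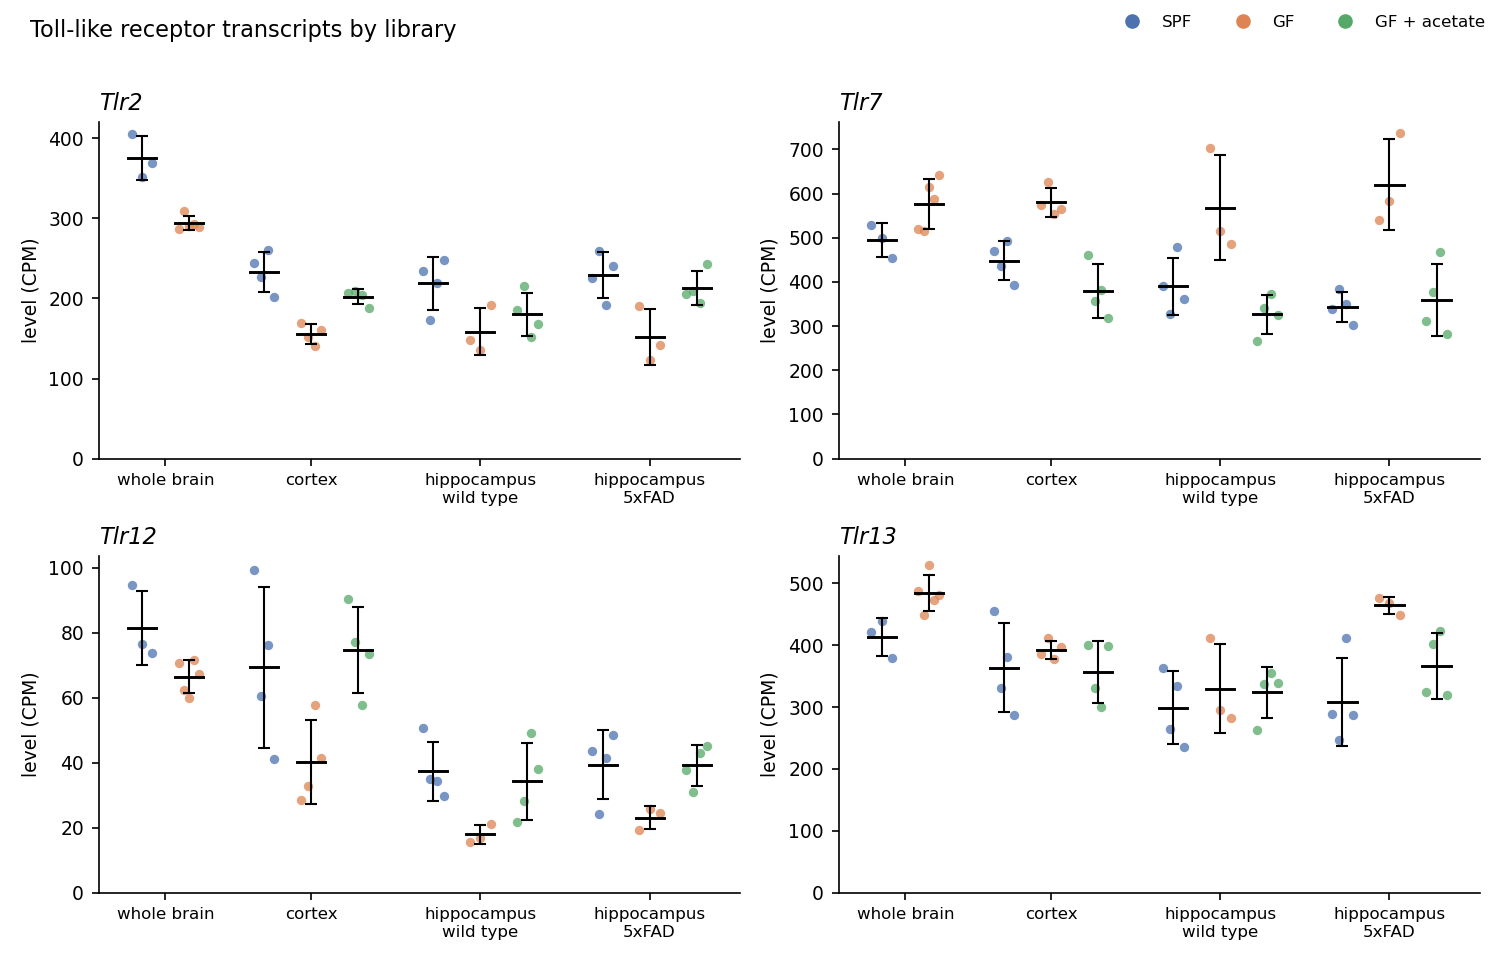
Levels of Tlr2, Tlr7, Tlr12 and Tlr13 (y axes, CPM) in each library of the 11 groups, with points for libraries and a line with bars for the mean ± SD. Every cortex GF library lies below every SPF library for Tlr2 and above every SPF library for Tlr7, SPF and GF overlap for Tlr12 in cortex, and acetate-treated libraries of Tlr7 lie below the GF libraries in cortex and hippocampus.

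The endosomal receptor Tlr7 moved opposite to Tlr2. In cortex the SPF libraries had 471, 436, 493.2 and 392 CPM, the GF libraries 573, 627, 554 and 566 CPM and the acetate libraries 461, 356, 381 and 318 CPM. GF libraries were above every library of both other groups. The GF against SPF difference was log2 0.37 ± 0.11 and did not pass (adjusted p = 0.0924), although it did in DESeq2 (adjusted p = 0.033) and with no expression filter (adjusted p = 0.0493). Acetate against GF was 1.53-fold lower (log2 -0.61 ± 0.11, 95% interval -0.84 to -0.39, adjusted p = 0.0118). That call was lost without GF_WT_528 (adjusted p = 0.0508), or without GFA_WT_523 (0.0535), GFA_WT_524 (0.0502) or GFA_WT_525 (0.0555).

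In hippocampus the wild-type SPF libraries had 392, 328, 479 and 362 CPM of Tlr7, the GF libraries 704, 515 and 486 CPM and the acetate libraries 267, 342, 373 and 325 CPM. The 5xFAD SPF libraries had 338, 383, 349.7 (library SPF_FAD_2152) and 302 CPM, the GF libraries 540.1, 583 and 738 CPM and the acetate libraries 311, 377, 467 and 283 CPM. Over both genotypes the 6 GF libraries spanned 486 to 738 CPM, the 8 SPF libraries 302 to 479 CPM and the 8 acetate libraries 267 to 467 CPM. The GF group overlapped with neither other group. In 5xFAD mice Tlr7 was 1.81-fold higher in GF than SPF (log2 0.85 ± 0.17, adjusted p = 0.00691; 0.86, adjusted p = 0.014, without SPF_FAD_2152), a call lost without GF_FAD_531 (log2 0.72, adjusted p = 0.083). In wild-type mice the difference was 0.54 (adjusted p = 0.134) and did not pass.

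Averaged over both genotypes, Tlr7 was 1.62-fold higher in GF than SPF (log2 0.70 ± 0.12, adjusted p = 0.000772) and remained called in every alternative, without SPF_FAD_2152 included (0.70, adjusted p = 0.00144). Averaged acetate against GF was 1.73-fold lower (log2 -0.79 ± 0.12, adjusted p = 0.000725), also called in every alternative. Summed astrocyte markers, given with the other cell markers, likewise stood above SPF in GF hippocampus of both genotypes, and their part in these differences was not tested. Some of these marker genes had no counts there. Within genotypes, acetate against GF passed in wild type (log2 -0.80, adjusted p = 0.0291) and not in 5xFAD (-0.79, adjusted p = 0.0592). The wild-type call was lost without GF_WT_529 (log2 -0.62, adjusted p = 0.17), without GFA_WT_518 (0.0562), GFA_WT_523 (0.0528) or GFA_WT_525 (0.0847), and in a fit of wild-type GF and acetate libraries alone (0.177). No genotype interaction was called for Tlr7 (log2 0.31 for GF against SPF, 95% interval -0.18 to 0.80, adjusted p = 0.976). Acetate against SPF was not called, at log2 -0.26 (-0.58 to 0.06) in wild type and 0.07 (-0.25 to 0.39; 0.076 without SPF_FAD_2152) in 5xFAD. In whole brain Tlr7 differed by 0.22 (adjusted p = 0.184).

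**Figure D3:**
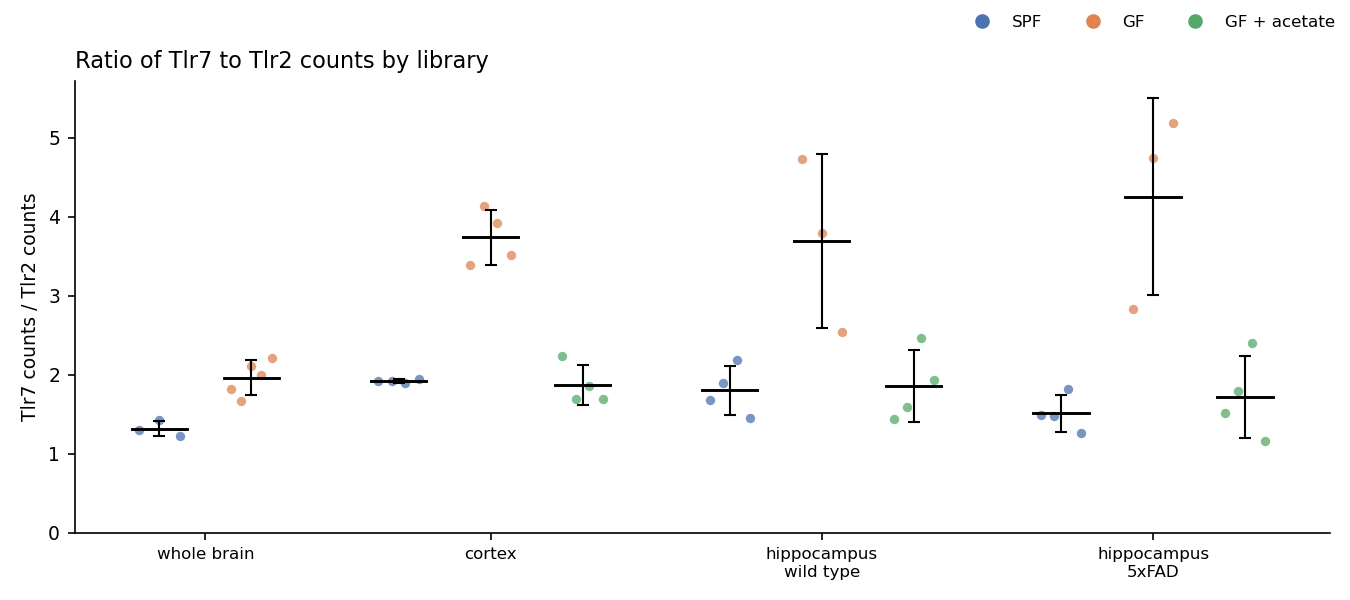
Ratio of Tlr7 to Tlr2 counts (y axis) in each library, with points for libraries and a line with bars for the mean ± SD. In cortex the GF libraries lie at 3.39 to 4.13, above SPF (1.90 to 1.95) and acetate (1.69 to 2.23).

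The ratio of Tlr7 to Tlr2 counts, chosen after the values had been seen and not tested, put both genes on 1 scale. It was 1.90 to 1.95 in cortex SPF, 3.39 to 4.13 in cortex GF and 1.69 to 2.23 in cortex acetate libraries. Wild-type hippocampus had 1.46 to 2.18, 2.54 to 4.73 and 1.44 to 2.46 in the same order. In 5xFAD hippocampus it was 1.26 to 1.82, 2.84 to 5.19 and 1.17 to 2.40, and in whole brain 1.23 to 1.42 in SPF and 1.66 to 2.22 in GF. In each tissue the GF libraries lay above all SPF libraries. The ratio needs no library scaling, since both counts come from 1 library.

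Tlr13 had 421, 439.7 and 379.9 CPM in whole-brain SPF and 449 to 528.6 CPM in GF, without overlap (log2 0.23, adjusted p = 0.0915, and 0.0263 in DESeq2). In 5xFAD hippocampus the SPF libraries had 288, 247, 411 (library SPF_FAD_2152) and 287 CPM and the GF libraries 475, 469 and 449 CPM. That difference was 0.59 and missed the threshold with all libraries (adjusted p = 0.0798), while without SPF_FAD_2152 it was 0.76 and passed (adjusted p = 0.0146). In cortex and wild-type hippocampus it was 0.11 and 0.14. Tlr3, the receptor of double-stranded RNA, ranged from 71.1 to 184 CPM, with averaged hippocampal differences of log2 -0.27 for GF against SPF (adjusted p = 0.253; -0.23, 0.36 without SPF_FAD_2152) and 0.42 for acetate against GF (adjusted p = 0.0918). It overlaps 381 exon bases of the antisense gene Gm45542, and the strand setting of the counting is not given in the sources used here. Tlr9 had 2.26 to 14.7 CPM, wide intervals in all comparisons and no call. Leaving out Tlr8, it had the lowest log2 difference for GF against SPF in whole brain (-0.50) and 5xFAD hippocampus (-0.78). For acetate against GF in 5xFAD it had the highest (1.11), with 7.63 to 12.2 CPM in acetate and 3.41 to 5.48 CPM in GF libraries. In wild-type hippocampus the GF libraries (8.51 to 14.4 CPM) lay within the SPF range (4.77 to 14.7 CPM).

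Tlr12, the profilin receptor, was lower in GF hippocampus. In wild-type mice the SPF libraries had 50.6, 35.0, 34.3 and 29.8 CPM, the GF libraries 15.7, 16.97 and 21.2 CPM and the acetate libraries 21.9, 28.1, 49.0 and 38.1 CPM. In 5xFAD mice they had 43.5, 24.1, 41.4 (library SPF_FAD_2152) and 48.6 CPM, then 19.2, 25.7 and 24.5 CPM, then 37.7, 30.8, 43.0 and 45.2 CPM. Wild-type GF lay below both other groups without overlap, and 5xFAD GF below the acetate group. Averaged over genotypes, Tlr12 was 1.89-fold lower in GF than SPF (log2 -0.92 ± 0.18, adjusted p = 0.00347; -0.91, adjusted p = 0.00614, without SPF_FAD_2152) and 1.80-fold higher in acetate than GF (0.84 ± 0.18, adjusted p = 0.0133). The acetate call was lost without GF_WT_529 (0.79, adjusted p = 0.0597). Within genotypes no Tlr12 difference passed, at -1.06 (adjusted p = 0.0562) in wild type and -0.78 (0.153; -0.75, 0.213 without SPF_FAD_2152) in 5xFAD for GF against SPF. The wild-type difference did pass in 3 of 6 alternatives, and in 0 of 7 fits that left out a library. Acetate against GF in wild type (0.93, adjusted p = 0.113) passed in 1 of 5 and 1 of 7. In 5xFAD neither Tlr12 difference passed in any alternative.

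In cortex Tlr12 had 99.2, 60.6, 76.3 and 41.0 CPM in SPF, 28.6, 32.8, 57.8 and 41.4 CPM in GF and 90.3, 77.1, 57.9 and 73.4 CPM in acetate libraries. SPF and GF overlapped, and acetate lay above GF by a narrow margin. The GF difference was -0.79 (adjusted p = 0.107), and passed without SPF 4 (-0.97, adjusted p = 0.0251) or GF_WT_530 (-1.01, adjusted p = 0.0406). The acetate difference from GF was 0.90 (adjusted p = 0.0829), and passed without GF_WT_530 (1.12, adjusted p = 0.0317). Whole-brain SPF libraries had 94.6, 76.4 and 73.6 CPM and GF libraries 60.0 to 71.6 CPM (-0.30, adjusted p = 0.179).

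Read against the background of all genes, the share of receptor genes called was as follows. In whole brain 2 of 9 tested receptor genes were called, Tlr1 higher and Tlr2 lower, where 1.99% of 11332 genes were. Cortex GF against SPF called 1 of 9 (1.71% of 15113 genes) and acetate against GF 1 of 9 (0.973%). In wild-type hippocampus none of 10 was called for GF against SPF (0.727% of 17063 genes) and 1 for acetate against GF (0.492%). In 5xFAD hippocampus 1 of 10 was called for GF against SPF (1.82%; 3 without SPF_FAD_2152, with Tlr2 and Tlr13 added) and none for acetate against GF (0.082%). The averages over genotypes called 3 of 10 for GF against SPF (4.67%; 4 without SPF_FAD_2152, where Tlr13 was at log2 0.45 with an adjusted p of 0.0181) and 2 for acetate against GF (1.85%). The median log2 difference of the receptor genes in the averaged GF against SPF contrast was -0.28, beside 0.00 over all genes, with Tlr7 and Tlr13 above 0. Where edgeR called none, 3 receptor genes had an unadjusted p under 0.05 for wild-type GF against SPF, as had 2151 of all 17063 genes. DESeq2 called 2 there, beside 193 genes higher and 228 lower over all genes. For acetate against GF in 5xFAD, 5 receptor genes had an unadjusted p under 0.05, as had 1286 of all 17063 genes. DESeq2 called 1 there, beside 43 genes higher and 69 lower.

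**Figure D4:**
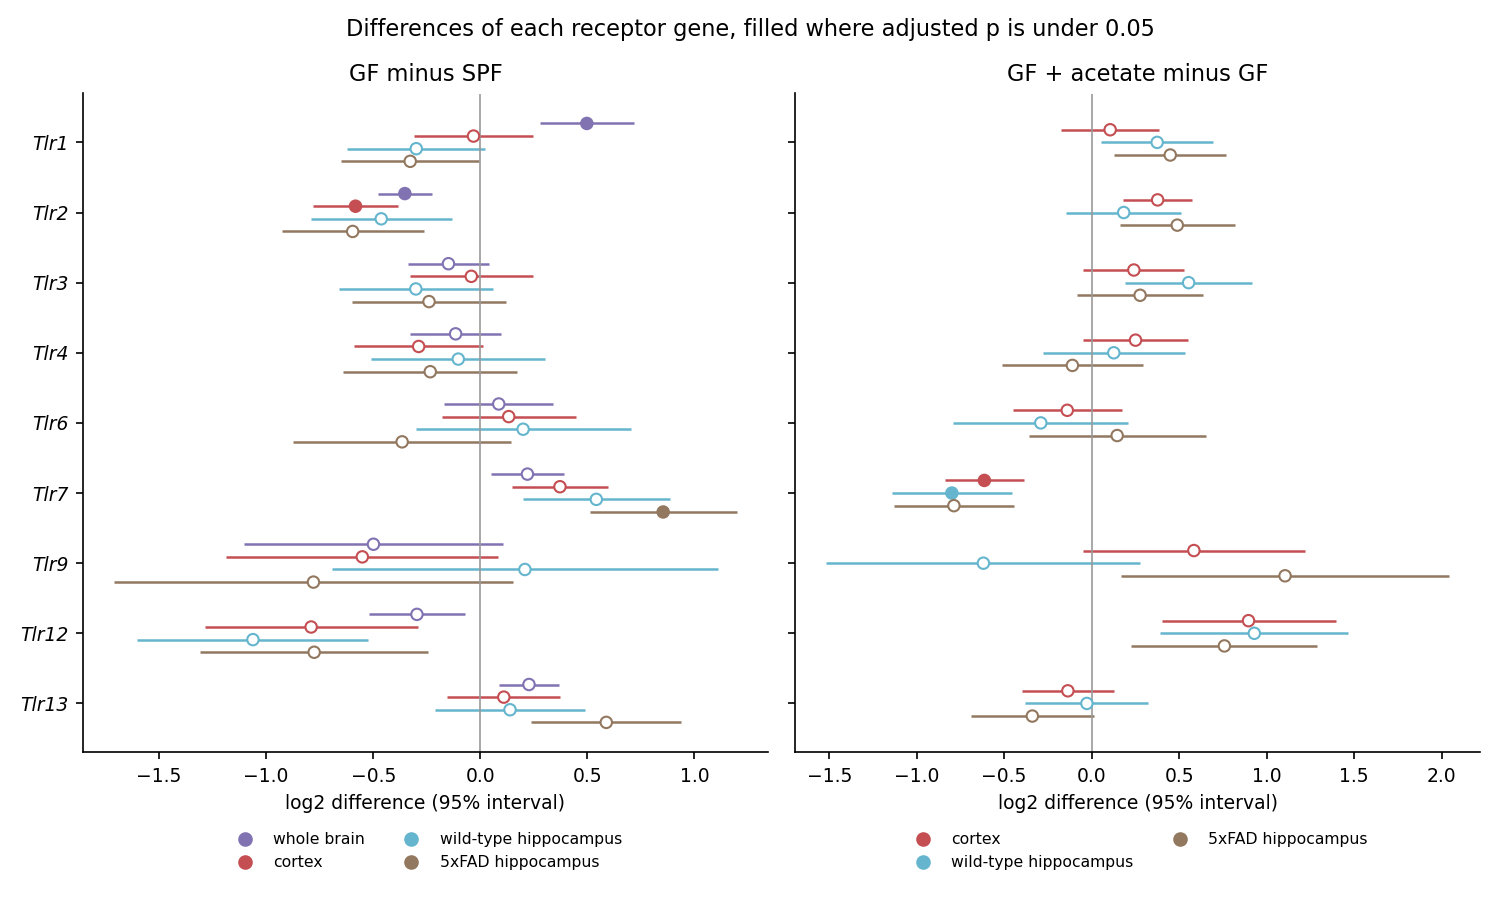
Fitted log2 difference with its 95% interval (x axis) for 9 receptor genes, GF minus SPF (left) and acetate minus GF (right), coloured by tissue and filled where the edgeR adjusted p is under 0.05. Tlr2 lies below 0 and Tlr7 above 0 in all 4 GF comparisons, and Tlr7 lies below 0 in all 3 acetate comparisons.

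Acetate-treated and SPF microglia showed no called receptor gene. In cortex the log2 differences lay between -0.24 and 0.20 (0.364% of genes called), in wild-type hippocampus between -0.41 and 0.25 (0.123%) and, leaving out Tlr8, in 5xFAD hippocampus between -0.34 and 0.33 (0.0527%). The edgeR count at an unadjusted p under 0.05 was 2 in cortex and 0 in both hippocampal comparisons, and DESeq2 called none. Over all genes that edgeR count was 1063 of 15113 in cortex, 1370 of 17063 in wild-type hippocampus and 1147 of 17063 in 5xFAD hippocampus. The absence of a call does not show equal levels. Intervals given above, of Tlr2 in cortex and Tlr7 in hippocampus, bound those differences only. Tlr7 in cortex was at log2 -0.24 (adjusted p = 0.667), the smallest adjusted p of the receptor genes there. Its cortex levels in GFA_WT_523, GFA_WT_524 and GFA_WT_525 lay below every SPF library, and that in GFA_WT_518 lay within the SPF range. Among the pathway genes, Wdfy1, described below, was higher with acetate than in SPF in cortex (log2 1.35, adjusted p = 0.00139) and in wild-type hippocampus (1.60, 0.000854), in every alternative. Ly86 was lower in cortex (-0.67, 0.0439), a call lost in 6 of 8 fits that left out a library.

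Between 5xFAD and wild-type hippocampus no receptor gene was called by edgeR or DESeq2 in SPF (0.568% of genes called), GF (0.756%) or acetate-treated mice (2.51%), and none in SPF without SPF_FAD_2152. At an unadjusted p under 0.05 there were 0, 3 and 0, beside 1742, 1810 and 2443 of all 17063 genes. Leaving out Tlr8, log2 differences spanned -0.34 to 0.08 in SPF, -1.33 (Tlr9) to 0.49 (Tlr13) in GF and -0.37 to 0.39 in acetate-treated mice. In the 3 genotype interactions, of GF against SPF, acetate against GF and acetate against SPF, edgeR called no gene. DESeq2 called 8 genes higher and 7 lower in the first, 1 and 6 in the second and 2 and 3 in the third. No receptor gene was among the DESeq2 calls, and 0, 1 and 0 had an unadjusted p under 0.05 in edgeR. Of all 17063 genes, 942, 905 and 1124 had one.

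Some genes around the receptors were called between genotypes, and most listed ones were not. In SPF 1 of 13 co-receptors and trafficking factors, 1 of 5 endosomal proteases and 1 of 16 inhibitors were called (0.568% of all genes). In GF 2 of 5 proteases and 1 of 16 inhibitors were (0.756%). With acetate 2 of 13, 2 of 5 and 1 of 16 of these lists were (2.51%). There 1 of 9 transcription factors and 2 of 11 inflammatory targets were also called. Ctsb was higher in 5xFAD in SPF (log2 0.74, adjusted p = 0.0163), GF (1.09, 0.00142) and acetate-treated mice (1.04, 0.000165), and the last 2 calls held in every alternative. Ctsl (0.82, 0.00111), the stress-induced inhibitor Atf3 (1.31, 0.00144), Ccl3 (2.14, 4.91e-05) and Ccl4 (1.57, 0.00332) were higher in acetate-treated 5xFAD mice, also in every alternative. There Irf7, an interferon-induced transcription factor gene, was higher (2.54, 0.0152), and Ly96 (-0.61, 0.0337) and Slc15a4 (-0.39, 0.0336) were lower. These 3 calls were lost in 4, 6 and 6 of 8 fits that left out a library. In GF mice the calls of Ctsl (0.75, 0.0188) and Atf3 (1.26, 0.0188) were lost in 5 and 4 of 6 such fits. In SPF mice Hsp90b1 (0.46, 0.0228) was higher and Dusp1 (-1.60, 0.0163) lower. The SPF calls of Ctsb, Hsp90b1 and Dusp1 held without SPF_FAD_2152 but were lost in 3, 5 and 4 of 8 fits that left out a library, and in a fit of both SPF groups alone (0.126, 0.18 and 0.18).

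Cortex and hippocampus of 11 wild-type animals carried the same animal number, and were compared with the animal as a block. Tlr12 was lower in the hippocampus of 11 of 11 animals, with 33.1 to 100.05 CPM in cortex and 15.5 to 50.3 CPM in hippocampus. The cortex to hippocampus ratio was 1.199 to 4.23, with a median of 1.99. Averaged over the 3 conditions, a contrast added after the values had been seen, Tlr12 was 2.17-fold lower in hippocampus (log2 -1.12 ± 0.14, 95% interval -1.42 to -0.82, adjusted p = 0.000295), and the call held in every alternative. Per condition the difference was -0.87 in SPF (adjusted p = 0.0934), -1.29 in GF (0.0671) and -1.19 in acetate-treated mice (0.0188), the last lost without GFA_WT_518 (-0.90, 0.0806), GFA_WT_523 (0.0861) or GFA_WT_525 (0.0946). Of 9 receptor genes, 0 were called in SPF (0.718% of 16706 genes), 0 in GF (0.0359%) and 1 in acetate-treated mice (2.38%). DESeq2 called 1 in SPF and 1 in GF. An unadjusted p under 0.05 was found for 2 receptor genes in SPF, beside 2322 of all 16706 genes, and for 4 in GF, beside 1983.

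**Figure D5:**
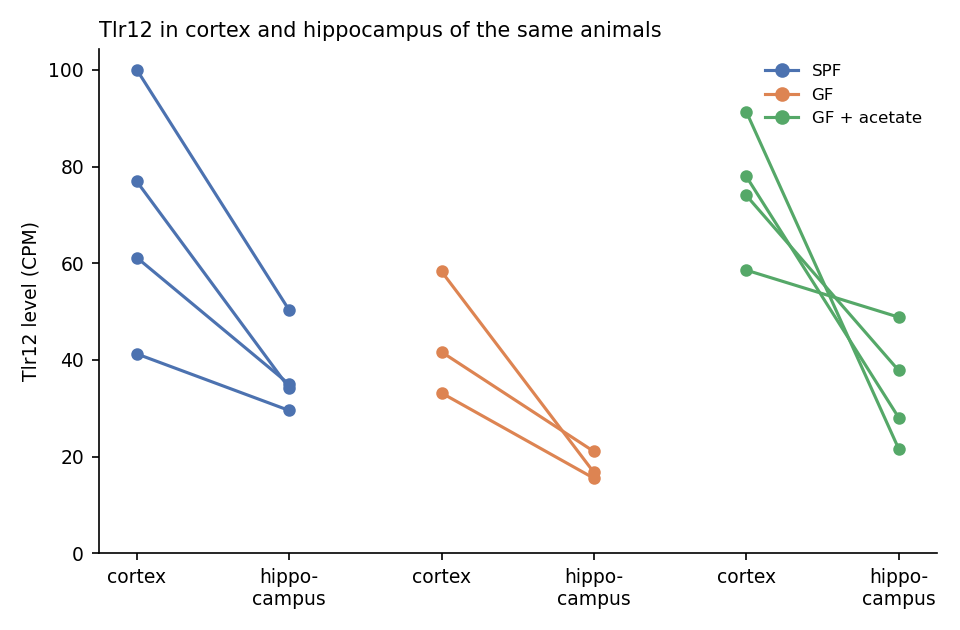
Tlr12 level (y axis, CPM) in cortex and hippocampus, with 1 line per animal, for 4 SPF, 3 GF and 4 acetate-treated wild-type mice. All 11 lines fall from cortex to hippocampus.

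The averaged region contrast called 3 of 9 receptor genes, all lower in hippocampus, where 12.5% of genes were called with 8.06% lower and 4.43% higher. The others were Tlr13 (log2 -0.26, adjusted p = 0.0231, lower in 9 of 11 animals) and Tlr3 (-0.23, adjusted p = 0.0411, lower in 10 of 11). Both calls were lost in the fit without the animal block (adjusted p 0.087 and 0.113). Leaving out 1 animal also removed the Tlr13 call for GFA_WT_525, GF_WT_530, GF_WT_532, SPF 1 or SPF 2 (0.0507 to 0.0756), and the Tlr3 call for 8 of the 11 animals. No region interaction was called for any gene by edgeR, while DESeq2 called 3 genes higher and 3 lower for GF against SPF, and 1 higher and 1 lower for acetate against GF. None of the receptor genes reached an unadjusted p under 0.05 in edgeR or a DESeq2 call there. Of all 16706 genes, 900 and 732 reached that unadjusted p.

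In the same averaged contrast, 4 of 12 tested partners were lower and 3 higher in hippocampus. Unc93b1 (log2 -0.29, adjusted p = 0.000591) and Slc15a4 (-0.30, 0.00421) were lower, and Cd180 (0.60, 0.000591) and Ly86 (0.37, 0.000295) higher. Of 23 adaptors and kinases 7 were lower and none higher, among them the adaptor Pik3ap1 (-0.51, 8.39e-05), the kinases Ripk1 (-0.42, 0.00452) and Tbk1 (-0.33, 0.00455) and the TAK1-binding protein gene Tab1 (-0.67, 0.00759). The transcription factor genes Irf5 (-0.34, 0.000492) and Rela (-0.28, 0.00438) were lower, as were the inhibitors Trafd1 (-0.40, 0.00102), Inpp5d (-0.29, 0.00128) and Tollip (-0.53, 0.00755). Ctsb, a lysosomal protease, was lower (-0.38, 0.000139) and Ctsl, another, higher (0.21, 0.015). Ccl4 was higher (0.72, 0.00309). These calls held in every alternative.

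Other calls between regions were less stable. Il1a was lower (-0.42, 0.0036) and lost its call without the animal block (0.132). Ccl2 was higher (0.74, 0.0229), a call lost without GFA_WT_525, GF_WT_530 or SPF 3 (0.0508 to 0.0834). Myd88 (-0.24, 0.0276), Cd14 (0.18, 0.0396) and Ccl3 (0.41, 0.0495) lost their calls in 6, 8 and 8 of 11 fits that left out an animal.

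Several receptor partners were lower in GF hippocampus. Of 13 tested co-receptors, ligand carriers and trafficking factors, 5 were lower and 0 higher in GF than SPF over both genotypes (list median log2 -0.33, beside 0.00 over all genes, of which 2.61% were called lower and 2.06% higher). Unc93b1, the escort of the endosomal receptors, had 1438 to 1655 CPM in wild-type SPF and 1053 to 1311 CPM in wild-type GF libraries, and was lower by log2 -0.37 on average (adjusted p = 0.0011). Slc15a4, an endolysosomal transporter needed for TLR7 and TLR9 signalling, was at -0.45 (adjusted p = 0.000922), and the receptor chaperone Hsp90b1 at -0.41 (0.0014). Ly86, which encodes the partner of CD180 known as MD-1, was at -0.76 (0.00245). These 4 calls held in every alternative. Cnpy3, a further chaperone, was at -0.33 (0.0124), a call lost without GF_FAD_531 (0.0549).

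Adaptors and kinases were more mixed, with 2 of 23 higher and 2 lower. Wdfy1, known to bring the adaptor TRIF to TLR3 and TLR4, was higher in GF at log2 0.92 (adjusted p = 0.00135), and the kinase Chuk was lower (-0.38, 0.0186). Both calls held in every alternative. Ticam1, which encodes TRIF, was at -0.20 (0.654). Myd88 (-0.36, 0.0414) and Tab3 (0.77, 0.0455) lost theirs in 10 and 12 of 14 fits that left out a library. In whole brain Wdfy1 went from 6.10 to 9.96 CPM in SPF to 99.3 to 121 CPM in GF, a log2 difference of 3.72 (adjusted p = 1.82e-08), and in cortex it was higher by 0.91 (0.0102). Without SPF_FAD_2152 the averaged hippocampal calls of the partners, adaptors and kinases named here remained, except for Tab3 (0.0634).

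Among 9 transcription factors, Relb (log2 -1.15, adjusted p = 0.00193) and Irf8 (-0.36, 0.00534) were lower and none was higher. Of 16 inhibitors of signalling, Nfkbia, the NF-kB inhibitor that is itself an NF-kB target, was higher (0.77, 0.00212), as were the phosphatases Dusp1 (1.38, 0.000629) and Inpp5d (0.40, 0.0151). Of 11 inflammatory targets, Icam1 (-0.72, 0.000526) and Il1a (-0.82, 0.011) were lower and none was higher, and Tnf and Il1b were not called in any GF against SPF comparison. Without SPF_FAD_2152 each of these factor, inhibitor and target calls remained. With acetate against GF, averaged over genotypes, Unc93b1 (0.28, 0.0221), Cd180 (0.77, 0.0232) and Icam1 (0.66, 0.00254) were higher, and Nfkbia (-0.96, 0.000824) and Dusp1 (-1.05, 0.0121) lower. The Unc93b1 and Cd180 calls were each lost in 6 of 14 fits that left out a library and with no expression filter (0.0553 and 0.105). The Dusp1 call was lost without GF_WT_529 (0.0519) and with no filter (0.0784). Without both GF_WT_530 and GFA_WT_518 the Unc93b1 (0.0884) and Dusp1 (0.0797) calls were lost. The Il1a call for GF against SPF was lost with no expression filter (0.0539).

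In whole brain the partners lower in GF were Ly86, from 1505 ± 35.8 to 797 ± 114 CPM (SD, n = 3 and 5; log2 -0.92, adjusted p = 9.18e-05), and Cd180, a lipopolysaccharide-modulating receptor related to TLR4 (-0.64, 0.0122). The chemokine genes Ccl3 (1.35, 0.0122) and Ccl4 (1.43, 0.00328) were higher, Nfkb1 (-0.46, 0.00827) and Il1a (-0.55, 0.0219) lower, and the proteases Lgmn (0.21, 0.0137) and Ctsb (0.21, 0.0395) higher. In cortex Cd180 (-0.99, 0.0237) and Icam1 (-0.45, 0.0215) were lower in GF, and with acetate Unc93b1 (0.44, 0.0365) and Icam1 (0.54, 0.0136) were higher and Ccl3 (-1.03, 0.0378) lower than in GF. Of 8 fits that each left out 1 library, the whole-brain call held in 8 for Ly86, Wdfy1 and Ccl4, in 7 for Nfkb1, in 6 for Cd180, Lgmn and Ccl3, in 3 for Il1a and in 2 for Ctsb. The cortex calls for GF against SPF held in 8 for Wdfy1, 4 for Icam1 and 3 for Cd180, and those for acetate against GF in 4 for Icam1 and 1 each for Unc93b1 and Ccl3.

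The genes whose pattern over the 34 cortex and hippocampus libraries was most like that of a receptor are given as a description, since these libraries share animals and differ in depth. Among 9506 genes, Tlr12 was most like Sirpa (Pearson r = 0.880), Lcp1 (0.863) and Cltc (0.861), and Tlr7 most like Pnpla2 (0.879), Ppp1r21 (0.877) and Ssh2 (0.848). Genes like Tlr13 included Pik3cg (0.868) and Sort1 (0.821), and Tlr2 was most like Ptpn6 (0.784), Irf8 (0.776) and Ccdc124 (0.766). For the other members the closest of the 3 genes were Zfp964 for Tlr6 (0.795), Fzd4 for Tlr3 (0.741), Kif21b for Tlr9 (0.731), Rab8b for Tlr4 (0.703) and Chuk for Tlr1 (0.637). Within the family, Tlr7 and Tlr13 had r = 0.59, and Tlr2 and Tlr7 r = -0.51.

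Markers of other cells differed between housing groups. The summed level of 7 border-macrophage markers was 20.7 to 35.4 CPM in cortex SPF, 8.71 to 11.5 in GF and 7.02 to 13.5 in acetate libraries, with Lyve1 at 0 in all of these, and in wild-type hippocampus 13.98 to 27.5, 1.97 to 9.69 and 1.35 to 10.2 CPM. In 5xFAD hippocampus it was 13.1 to 28.9, 3.72 to 8.30 and 10.9 to 26.5 CPM. Summed microglial markers of GF libraries lay below those of both other groups in cortex, at 47876 to 61223 (SPF), 41966 to 47333 (GF) and 51518 to 56228 CPM (acetate). The same held in wild-type hippocampus, at 49850 to 55340, 40811 to 42001 and 51697 to 53070 CPM in that order. In 5xFAD hippocampus GF libraries (38952 to 39913 CPM) lay below acetate libraries (44128 to 45875 CPM) and within the SPF range (37971 to 52344 CPM). Whole brain had 74007 to 75523 CPM in SPF and 71769 to 74242 CPM in GF. Summed markers of astrocytes went the other way, though these sums rest on part of the list. Of the 6 genes, 3 to 4 had no counts per library in wild-type GF hippocampus and 1 to 4 in SPF. In 5xFAD hippocampus 2 to 3 had none in GF and 0 to 4 in SPF. In wild-type hippocampus GF libraries had 320 to 439 CPM, above SPF (233 to 302 CPM) and overlapping with acetate (205 to 396 CPM). In 5xFAD hippocampus GF libraries had 474 to 479.7 CPM, above SPF (241 to 310 CPM) and acetate libraries (228 to 346 CPM). Cortex GF libraries had 351 to 465 CPM, above acetate (229 to 321 CPM) and overlapping with SPF (302 to 386 CPM). In whole brain the groups overlapped, at 192 to 232 CPM in SPF and 201 to 269 CPM in GF. Neutrophil markers reached 279, 240.2 and 186 CPM in SPF_FAD_2153, hippocampal GF_WT_532 and whole-brain GF 4, against at most 29.9 CPM in all other libraries. The part of any of these cell markers in the receptor differences was not tested.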

How the data were processed

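The authors deposited raw counts per gene symbol. The aligner was STAR 2.5.2b and the counter featureCounts 1.5.1, per the submitters' processing notes, which name the human build GRCh38 although the symbols are mouse ones. No read coordinates are therefore given, and the strand setting is not given in the sources used here. Exon lengths and overlaps were taken from GENCODE M21 and promoters from RefSeq. Of the symbols, 95.7% (whole brain) and 93.5% (cortex and hippocampus) were found in the GENCODE table.

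Testing used R 4.3.3 and edgeR 4.0.16 with limma 3.58.1. Whole brain, cortex (3 groups), hippocampus (6 groups) and the region comparison (22 libraries of 11 animals) were fitted apart. The expression filter was filterByExpr at a minimum count of 10 and scaling was TMM. Two-sided robust quasi-likelihood tests received Benjamini-Hochberg adjustment across every gene tested in a fit, with a threshold of 0.05. CPM was computed with TMM-scaled library sizes, and log2 CPM with a prior count of 2. Over 61 pairs of libraries of 1 group, the counts differed with chi-square values of 10.1 to 60.2 per degree of freedom. No library was thus a copy of another in its group, and pairs across groups were not compared. The labels give animal numbers for some groups only, and p-values describe the spread between these libraries, which may be technical where it is not known that they came from separate animals.

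Cortex and hippocampus were paired by the animal number in the titles. Deviations from the group mean in the regions of 1 animal correlated across genes at r of 0.0249 to 0.207, over 0.1 in 4 of 11 animals. Each cortex library was compared only with the 3 or 4 hippocampal libraries of its own condition. Among these, all 11 correlated best with their own animal.

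The members, gene lists and tests were chosen with earlier results of these data known. All 10 receptor genes are described, Tlr6 and Tlr8 without log2 differences and the others not for every comparison. The rule for the pathway lists names up to 4 called genes per list and comparison by smallest p, plus Cd14, Ly96, Unc93b1, Myd88, Ticam1, Wdfy1, Tnf and Il1b. In hippocampus it was applied with the genotypes averaged for housing and acetate, and between regions with the conditions averaged. Contrasts averaged over genotypes or conditions and the Tlr7 to Tlr2 ratio were added after the values had been seen. The alternatives were DESeq2 1.42.0, RLE scaling, no expression filter, a fit of the compared groups alone, leaving out each library, the replicate block added or removed, and leaving out the shallow libraries or the pair with few detected genes (GF_WT_530 and GFA_WT_518). For Tlr13, 1 of the 3 genes most alike in pattern is not reported here.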

Additional observations from a re-analysis of the deposited data

Results flagged for a closer look

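A value far from the rest was sought in 76 sets, each of 1 receptor gene in 1 group of 4 or more libraries. Of these sets 3 held one, where chance gives about 1 in 20. Tlr8 was at 1.02 CPM in whole-brain GF 5, where the next library had 0.0401 CPM. In cortex it was at 0.0481 CPM, a single count, in GFA_WT_524, and the other 3 acetate libraries had none. Where the other libraries of a set are at 0, a single count is always flagged. Tlr6 was at 17.8 CPM in hippocampal GFA_WT_518, where the other 3 libraries had 46.6 to 49.9 CPM.

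Tlr1 differed between GF and SPF in opposite directions, at log2 0.50 in whole brain and -0.30 in wild-type hippocampus, with no overlap between the groups in either tissue. The first passed the threshold and the second did not. The difference between the tissues was not tested, since the tables differ in age and in sex-linked expression.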

How the results depend on the processing

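Of 2311 alternative values for single genes, 1987 kept their direction and side of the threshold, 279 lost and 40 gained a call and 5 changed sign. The sign changes were in uncalled values and came on leaving out 1 library. Tlr4 in whole-brain GF against SPF ranged from -0.21 to 0.010 (without SPF 3), Tlr1 in cortex GF against SPF from -0.13 (without GF_WT_532) to 0.072 (without SPF 4, and 0.069 without GF_WT_529), Tlr13 in wild-type hippocampus GF against SPF from -0.055 (without GF_WT_529) to 0.24, and Tlr7 in 5xFAD acetate against SPF from -0.085 (without GFA_FAD_521) to 0.17. The cause was not tested.

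Over all genes DESeq2 called 346 higher and 292 lower in whole brain. In cortex it called 312 and 315 for GF against SPF, and 236 and 191 for acetate against GF. In wild-type hippocampus it called 193 and 228, then 197 and 161, and in 5xFAD 264 and 306, then 43 and 69. Averaged acetate against GF had 340 and 271. The region comparisons had 239 and 462 in SPF and 154 and 285 in GF. The number of receptor genes called moved as follows. DESeq2 called 3 in whole brain (2 in edgeR), 2 in cortex for GF against SPF (1 in edgeR) and 2 for acetate against GF (1), 2 in wild-type hippocampus for GF against SPF (0) and 2 for acetate against GF (1), 3 in 5xFAD for GF against SPF (1) and 1 for acetate against GF (0), 4 for averaged acetate against GF (2), and 1 for each of the region comparisons in SPF and GF (0). Without a filter the counts were 2 in cortex GF against SPF, 1 in wild-type and 2 in 5xFAD GF against SPF, 1 in 5xFAD acetate against GF, and 1 each between regions in SPF and GF. With only the groups compared they were 3 in cortex, 0 in wild-type and 1 in 5xFAD hippocampus for acetate against GF. Without the shallow libraries wild-type GF against SPF called 1, and without GF_WT_530 and GFA_WT_518 wild-type acetate against GF called 0, the region comparison in acetate 0 and its average 1.

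Leaving out each library in turn gave 0 to 2 calls in whole brain, 1 to 2 in cortex GF against SPF, 0 to 2 in cortex acetate against GF, 0 to 1 in wild-type acetate against GF, 0 to 3 in 5xFAD GF against SPF, 0 to 1 in 5xFAD acetate against GF, 3 to 4 for averaged GF against SPF, 1 to 3 for averaged acetate against GF, 0 to 1 between regions in acetate and 1 to 3 for their average.

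In whole brain the numbers shared by SPF and GF do not pair the samples (r of -0.012, -0.011 and -0.033). With a replicate block there the count was 0 (2 without it), at log2 0.53 for Tlr1 (adjusted p = 0.116) and -0.37 for Tlr2 (adjusted p = 0.0826). The region average without the animal pairing (no replicate block) called 1. In the comparisons not named here, leaving out a library gave 0 calls throughout.

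Groups of 3 to 5 libraries limit every test.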
